A study of Mus musculus with 45 samples.

Results

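In CT26, a mouse colon carcinoma line, 10 genes were followed that had been picked because 3 short hairpin RNAs against Soat1, named sh1, sh2 and sh3, each moved them far and in 1 direction against a hairpin to luciferase (shLucif). They were chosen by the measured log2 fold changes of each hairpin against shLucif in CT26, and are 10 of the 55335 genes in each of the 2 deposited expression tables. Aqp8, Fam107b, Cox6a2, Avil and Rpia were the 5 that were lower with the hairpins, and Cd109, Qdpr, Hbb-bh1, Anxa8 and Angptl2 were the 5 that were higher. The 3 comparisons with shLucif chose these genes, so their values there, and the differences between hairpins that are made of them, are a description and carry no test. What the choice did not use was tested: the response to the compound stk in both lines, the 2 lines against each other under DMSO, and the control hairpins of Hepa1-6. The choice fixed a shared direction, and the sizes differed. The sh3 libraries of Rpia, Cox6a2, Aqp8, Avil, Cd109 and Hbb-bh1 lay apart from all sh1 and sh2 libraries. Such a gap was not shown to be particular to these genes, and the share of all genes with such a gap was not computed. By another measure, a limma adjusted p under 0.05, 54.6% of all 11832 genes tested in CT26 differed between sh3 and sh1. Between sh3 and sh2, 55.7% did. For Avil the log2 fold change was -0.52 with sh1 and -2.94 with sh3.

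Soat1 encodes sterol O-acyltransferase 1, an enzyme of the endoplasmic reticulum that joins cholesterol to fatty acids so that it can be stored in lipid droplets. The 10 genes belong to no single pathway. Rpia and Qdpr encode metabolic enzymes, Cox6a2 a subunit of the respiratory chain, Aqp8 a membrane channel, Avil an actin-binding protein and Fam107b a relative of an actin-binding protein. Cd109 encodes a protein of the cell surface, Anxa8 a membrane-binding protein, Angptl2 a secreted factor and Hbb-bh1 an embryonic globin. A hairpin RNA lowers its target messenger RNA, and separate hairpins to 1 gene are used because each can also act on other transcripts.

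Expression was measured by RNA sequencing of total RNA in cultured cells of CT26 and of Hepa1-6, a mouse liver line, with 30 libraries in 10 groups of 3. In the drug experiment, wild-type CT26 or Hepa1-6 cells received the solvent DMSO or stk, a compound known only by that label, for 48 hours. In the knockdown experiment, CT26 lines carried shLucif, sh1, sh2 or sh3 and Hepa1-6 lines carried shLucif or a scrambled hairpin (scramble), with no drug, and were collected 24 hours after seeding. The labels give neither a dose of stk, nor the hairpin sequences, nor whether a knockdown line is 1 clone, and Hepa1-6 lines with the Soat1 hairpins were not analysed here. All 10 genes are annotated as protein-coding. The labels do not say either that the 3 libraries of a group came from separate cultures, so the p-values measure the spread between these libraries, which may be technical. Each experiment has its own table and its own date in the labels. The tables were normalized apart, so a level in one is set beside a level in the other with no test.

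Levels are in FPKM, a count of sequenced fragments divided by transcript length and by the size of the library. Because FPKM hold no read totals, the depth is unknown and counting error could not be computed. Differences are of log2(FPKM + 1), a scale that understates changes of genes near or below 1 FPKM. Tests used limma. A gene was tested where 3 or more libraries in its model reached 1 FPKM, and called where its p, adjusted by the Benjamini-Hochberg method over all genes tested, was under 0.05. With 3 libraries against 3, an exact two-sided permutation test of 1 gene cannot go below p = 0.1, so none was used.

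Between 11159 and 11555 genes per library reached 1 FPKM. Soat1, the targeted gene, had 19.7, 19.8 and 20.2 FPKM in CT26 shLucif, 3.29, 3.23 and 3.28 with sh1, 3.44, 3.55 and 3.41 with sh2, and 2.52, 2.54 and 2.71 with sh3. Its log2 fold changes were -2.29, -2.23 and -2.54, and limma's adjusted p for the smallest of them was 1.83e-10. The libraries labelled Hepa1-6 shLucif went against their label. Their summed level of 10 hepatocyte markers was 67.8 to 76.2 FPKM, against 407 to 444 in Hepa1-6 scramble and 5.77 to 6.99 in CT26 shLucif, and their Soat1 was 12.7 to 13.6 FPKM against 0.0977 to 0.182 in scramble. CT26 itself lacked most intestinal epithelial markers: Epcam and Lgr5 were listed at 0 in its DMSO libraries and Krt20 made 24.5 to 28.6 of the summed 26.3 to 30.4 FPKM of the 11 markers there. The sh1 and sh2 groups were close to each other across all 11832 genes tested in the CT26 hairpin model, with a median absolute log2 difference of 0.0622, against 0.232 between sh1 and sh3 and 0.236 between sh2 and sh3. Between sh1 and sh2, limma called 2 of these genes. The labels do not give the hairpin sequences, so whether sh1 and sh2 are separate hairpins is not known here, and a direction shared by the 3 groups may be one shared by 2 hairpins.

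The promoters are shown for the 4 of the 10 genes whose proximal promoter carried a short motif other than the common GC box alone. RefSeq promoter entries (build GRCm38.p6) matched 7 of the 10 genes, and Cox6a2, Cd109 and Hbb-bh1 had no entry. Each run is the 250 bases before the RefSeq gene start, 5′ to 3′ on the gene's strand, and capitals mark motif matches on either strand. The windows are chr7:123462044-123462293 (plus strand) for Aqp8, chr2:3713208-3713457 (plus) for Fam107b, chr10:127000459-127000708 (plus) for Avil and chr5:45450230-45450479 (minus) for Qdpr.
Aqp8: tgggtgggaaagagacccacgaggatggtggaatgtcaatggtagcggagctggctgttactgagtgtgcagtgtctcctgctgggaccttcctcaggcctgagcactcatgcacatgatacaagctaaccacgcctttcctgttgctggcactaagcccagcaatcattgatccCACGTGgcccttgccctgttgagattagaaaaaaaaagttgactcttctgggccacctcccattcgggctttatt
Fam107b: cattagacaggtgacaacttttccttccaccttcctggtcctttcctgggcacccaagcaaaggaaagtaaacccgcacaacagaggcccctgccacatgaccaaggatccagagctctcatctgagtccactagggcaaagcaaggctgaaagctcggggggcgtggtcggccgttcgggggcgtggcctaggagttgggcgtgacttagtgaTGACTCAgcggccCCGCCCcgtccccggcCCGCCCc
Avil: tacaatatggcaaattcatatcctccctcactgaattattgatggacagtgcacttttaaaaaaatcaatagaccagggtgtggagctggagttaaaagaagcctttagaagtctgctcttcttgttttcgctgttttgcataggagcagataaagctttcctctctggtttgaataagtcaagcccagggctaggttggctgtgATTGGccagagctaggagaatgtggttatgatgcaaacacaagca
Qdpr: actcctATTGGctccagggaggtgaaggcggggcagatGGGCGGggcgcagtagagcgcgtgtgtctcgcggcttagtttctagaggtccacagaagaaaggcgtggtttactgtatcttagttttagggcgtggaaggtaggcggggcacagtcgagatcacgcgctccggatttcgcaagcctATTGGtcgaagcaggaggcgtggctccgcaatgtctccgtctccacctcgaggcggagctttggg

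The Aqp8 window held an E-box (CACGTG) that began 75 bases before the start, a motif in 6.02% of 32851 promoter windows of the same length. The Fam107b window held an AP-1 element (TGANTCA) 36 bases before the start, found in 6.75% of windows, and a pair of GC boxes (GGGCGG, in 32.7% of windows). CCAAT (33.8% of windows) was in the Avil window, 45 bases before the start, and at 244 and 65 bases before the start in the Qdpr window, which also held a GC box. GC boxes alone were in the Angptl2 and Rpia windows. TATAAA (12.4% of windows) was in none of the 7 windows. No motif of this list was in all 7. A match is a description of the letters in these windows. The windows that carry no match say nothing of the factors.

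**Figure D1:**
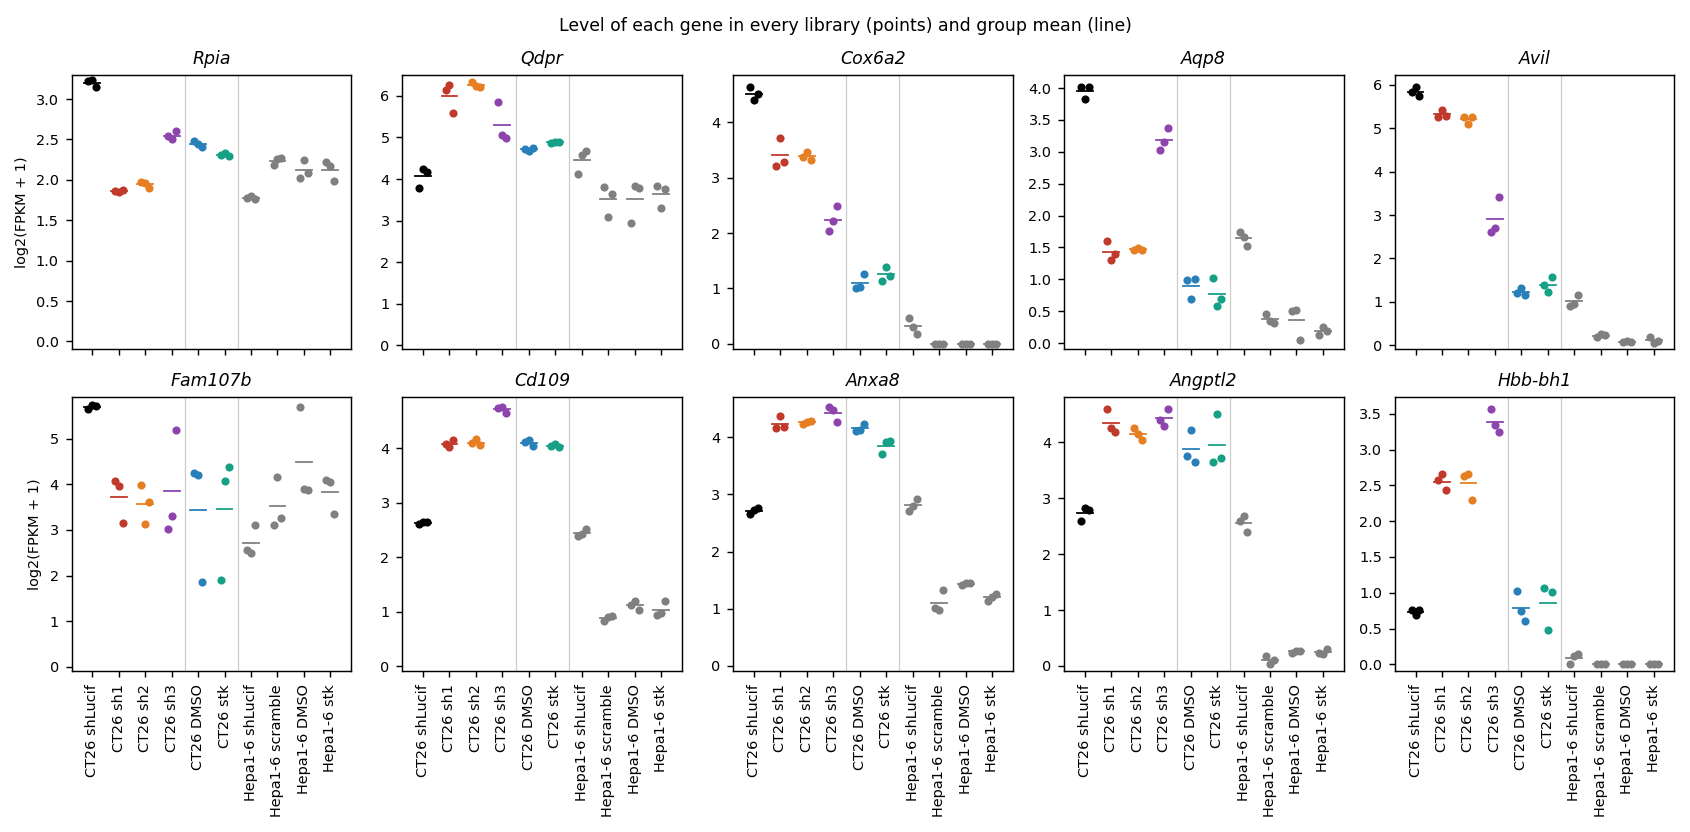
Level of each of the 10 genes as log2(FPKM + 1) in every library (points), with the group mean as a line, in the order CT26 shLucif, sh1, sh2, sh3, DMSO and stk, then the Hepa1-6 groups. The hairpin libraries lie on 1 side of shLucif in all 10 panels, while sh3 stands away from sh1 and sh2 in the panels of Rpia, Cox6a2, Aqp8, Avil, Cd109 and Hbb-bh1. The DMSO and stk groups come from the other table.

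Among all 11832 genes, 37.8% were called with sh1 against shLucif (19.1% higher and 18.7% lower), 38.9% with sh2 (18.9% and 20.0%) and 52.5% with sh3 (30.9% and 21.6%). All 10 of the chosen genes were called with each hairpin, which the choice of genes fixed, and nothing is read from that count. The 3 comparisons share the same 3 shLucif libraries. The choice was not of the 10 most extreme genes. Ranked by the smallest of the 3 changes, Hbb-bh1, Anxa8, Cd109, Angptl2 and Qdpr were the 3rd, 4th, 5th, 8th and 11th of the genes higher with every hairpin. Fam107b, Cox6a2, Aqp8, Rpia and Avil were the 3rd, 10th, 25th, 34th and 65th of those lower. Just inside stood Avil with a smallest change of 0.5221 and Qdpr with 1.218, and just outside stood Tmem9b with 0.5218 (lower) and 2310022B05Rik with 1.186 (higher).

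Rpia (chr6:70765720-70792232, minus strand, GRCm38; 3 annotated transcripts) encodes ribose-5-phosphate isomerase A, which interconverts ribose-5-phosphate and ribulose-5-phosphate in the pentose phosphate pathway. It stood at 8.38, 8.39 and 7.84 FPKM in CT26 shLucif, at 2.63, 2.59 and 2.66 with sh1, at 2.94, 2.88 and 2.72 with sh2, and at 4.82, 4.68 and 5.07 with sh3. The libraries of the 4 groups did not overlap, with shLucif highest, then sh3, then sh2 just above sh1. Its log2 fold changes with sh1, sh2 and sh3 were -1.34, -1.26 and -0.65 (SE 0.05 each). The mean with sh3 was 1.85 times that with sh1, a log2 difference of 0.69, and 1.70 times that with sh2.

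Of the 9 other pentose phosphate genes, all tested, 2 were called higher and 1 lower with sh1, 4 and 1 with sh2, and 5 and 2 with sh3. Their median log2 fold changes were 0.15, 0.27 and 0.56, against -0.00453, -0.0105 and 0.0399 over all 11832 genes. Tkt, the transketolase that uses the product of Rpia, was higher with each hairpin, with log2 fold changes of 0.69, 0.60 and 0.58. H6pd, a dehydrogenase at the entry of the same pathway in the endoplasmic reticulum, was higher by 0.41, 0.39 and 0.87. Prps1, which turns ribose-5-phosphate into the nucleotide precursor PRPP, was lower, with log2 fold changes of -1.18, -1.18 and -0.20, and with group means of 71.1, 30.9, 30.9 and 61.8 FPKM in shLucif, sh1, sh2 and sh3. Prps1, like Rpia, was less reduced with sh3: the difference from sh1 was 0.98 (limma adjusted p = 1.18e-08).

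Qdpr (chr5:45434021-45450236, minus strand; 10 annotated transcripts) encodes dihydropteridine reductase, which regenerates tetrahydrobiopterin, the cofactor of the aromatic amino acid hydroxylases. It stood at 12.9, 18.0 and 17.1 FPKM in CT26 shLucif, at 70.0, 76.0 and 46.7 with sh1, at 80.2, 74.2 and 73.6 with sh2, and at 56.6, 32.3 and 30.4 with sh3. Every hairpin library lay above every shLucif library, while 1 sh3 library reached into the range of sh1. With sh1, sh2 and sh3 the log2 fold changes were 1.92, 2.19 and 1.22 (SE 0.23 each). The level with sh3 differed from that with sh2 by -0.97 and from that with sh1 by -0.71 on the log2 scale.

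Among the other genes of tetrahydrobiopterin metabolism, Gch1, the first enzyme of its synthesis, had group means of 34.7, 47.5, 47.9 and 18.2 FPKM in shLucif, sh1, sh2 and sh3. It was higher with sh1 (0.44) and sh2 (0.45) and lower with sh3 (-0.90), and the sh3 and sh1 groups differed by -1.34 (limma adjusted p = 1.24e-07). Gchfr, the feedback regulator of Gch1, was higher with all 3 (0.35, 0.29 and 0.26).

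Cox6a2 (chr7:128205435-128206387, minus strand; 1 annotated transcript) encodes the heart and skeletal muscle form of subunit 6A of cytochrome c oxidase. It stood at 23.7, 20.1 and 21.8 FPKM in CT26 shLucif, at 8.23, 12.2 and 8.69 with sh1, at 9.39, 10.02 and 8.98 with sh2, and at 3.09, 3.64 and 4.58 with sh3. The sh1 and sh2 libraries overlapped each other, and the sh3 libraries were below all of them. Against shLucif the log2 fold changes were -1.11, -1.13 and -2.27 (SE 0.14 each). The difference of sh3 from sh1 was -1.16 and from sh2 -1.14. The summed level of 8 muscle markers was 6.57 to 7.16 FPKM with shLucif, 3.63 to 4.35 with sh1, 3.39 to 4.13 with sh2 and 7.61 to 8.08 with sh3, with Myod1 and Myog at 0 in every one of these groups. The marker sum was highest with sh3, where Cox6a2 was lowest. It was lowest in the sh1 and sh2 groups, where Cox6a2 was intermediate. Only 1 or 2 of the 8 markers reached 1 FPKM in any of these groups, so the sum rests on few genes. Its part in the Cox6a2 levels was not tested.

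Of 10 other cytochrome c oxidase subunits with tissue isoforms, 6 were tested. Cox6a1, the form found in most tissues, had group means of 336, 290, 287 and 285 FPKM in shLucif, sh1, sh2 and sh3, and was called lower with each hairpin (-0.21, -0.23 and -0.23). Cox6b1 was called lower with sh3 (-0.19, limma adjusted p = 0.0188). The counts were 0 higher and 1 lower with sh1, 0 and 1 with sh2, and 0 and 2 with sh3, and the medians of the 6 were -0.15, -0.14 and -0.21.

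Aqp8 (chr7:123462291-123468004, plus strand; 3 annotated transcripts) encodes aquaporin 8, a channel for water and hydrogen peroxide that colon epithelium and liver express. It stood at 15.1, 13.2 and 15.2 FPKM in CT26 shLucif, at 2.02, 1.46 and 1.65 with sh1, at 1.75, 1.81 and 1.75 with sh2, and at 7.14, 7.88 and 9.38 with sh3. The sh3 libraries lay between the shLucif libraries and the other hairpins without overlap with either. The log2 fold changes were -2.52, -2.48 and -0.77 (SE 0.10 each). The mean with sh3 was 4.75 times that with sh1, a log2 difference of 1.75, and 4.60 times that with sh2, a difference of 1.72. Of 11 other aquaporins only Aqp1, a water channel, was tested. It had means of 4.26, 3.35, 3.52 and 12.8 FPKM in shLucif, sh1, sh2 and sh3, and was called lower with sh1 (-0.28, limma adjusted p = 0.0240) and higher with sh3 (1.39, adjusted p = 3.21e-07).

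Avil (chr10:127000709-127020994, plus strand; 4 annotated transcripts) encodes advillin, an actin-binding protein of the gelsolin and villin family known from sensory neurons and tuft cells. It stood at 56.2, 60.6 and 52.6 FPKM in CT26 shLucif, at 37.1, 41.9 and 38.0 with sh1, at 37.2, 33.2 and 37.3 with sh2, and at 5.06, 5.47 and 9.66 with sh3. With sh1 and sh2 the level was about 0.69 and 0.64 of that with shLucif, and with sh3 it was 0.12 of it. On the log2 scale the fold changes were -0.52, -0.64 and -2.94 (SE 0.17 each). The difference of sh3 from sh1 was -2.42 and from sh2 -2.30. Avil overlaps Tsfm on the opposite strand, which had 12.6 to 18.9 FPKM in the CT26 knockdown libraries. Whether the counting used strand is not given in the sources used here, so reads of the shared stretch cannot be told apart.

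Of 7 other genes of the gelsolin and villin family, 4 were tested, and 3 were higher and 1 lower with sh1, 2 and 1 with sh2, and 3 and 0 with sh3. Gsn, gelsolin itself, had means of 52.9, 41.2, 43.0 and 113 FPKM in shLucif, sh1, sh2 and sh3. Its log2 fold changes of -0.35, -0.29 and 1.08 were all called, so Gsn fell with sh1 and sh2 and rose with sh3. Svil (supervillin) was higher with each hairpin (0.27, 0.19 and 0.48), and Capg, an actin-capping protein, was higher with sh1 (0.37) and sh2 (0.31). The median log2 fold changes of the 4 genes were 0.21, 0.13 and 0.35.

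Fam107b (chr2:3570488-3782142, plus strand; 9 annotated transcripts) encodes a small protein whose relative Fam107a binds actin. Its RefSeq promoter above belongs to a start inside this span, not to its first base. It stood at 49.0, 51.9 and 51.1 FPKM in CT26 shLucif, at 15.7, 14.5 and 7.86 with sh1, at 14.9, 7.73 and 11.1 with sh2, and at 7.15, 8.87 and 35.7 with sh3. All hairpin libraries were below shLucif, but sh3 replicate 3 was 4.99 times sh3 replicate 1. The log2 fold changes were -1.97, -2.12 and -1.85 (SE 0.48 each). The difference of sh3 from sh1 was 0.12, and -0.56 without sh3 replicate 3. The other Fam107 gene, Fam107a, did not pass the filter on low values.

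Fam107b also swung within groups that no hairpin touched. It was 18.0, 17.5 and 2.64 FPKM in CT26 DMSO, 2.76, 15.7 and 19.7 in CT26 stk, and 50.3, 13.9 and 13.6 in Hepa1-6 DMSO. In each of these groups 1 library stood apart from the others, by 6.81, 7.14 and 3.70 times between the lowest and the highest. Among genes with at least 1 FPKM in all 3 libraries of a group, only 1.32% to 1.87% were 2 times or more apart, depending on the group.

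Cd109 (chr9:78615546-78716253, plus strand; 2 annotated transcripts) encodes a lipid-anchored surface protein of the alpha-2-macroglobulin family that binds TGF-beta. It stood at 5.13, 5.24 and 5.25 FPKM in CT26 shLucif, at 15.8, 15.3 and 16.8 with sh1, at 16.1, 16.9 and 15.5 with sh2, and at 25.7, 25.9 and 24.1 with sh3. The libraries of each group were tight, sh1 and sh2 overlapped, and sh3 was above both. Log2 fold changes were 1.45, 1.47 and 2.08 (SE 0.05 each), the highest with sh3. On the log2 scale sh3 lay 0.63 above sh1 and 0.61 above sh2. None of the 6 other genes of the alpha-2-macroglobulin and complement family passed the filter on low values in the CT26 hairpin model.

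Anxa8 (chr14:34085981-34100571, plus strand; 2 annotated transcripts) encodes annexin A8, a protein that binds membranes in the presence of calcium. It stood at 5.28, 5.65 and 5.79 FPKM in CT26 shLucif, at 16.8, 19.7 and 17.2 with sh1, at 17.7, 18.3 and 18.5 with sh2, and at 22.2, 21.4 and 18.4 with sh3. All 9 hairpin libraries were above shLucif and the hairpins overlapped one another. The log2 fold changes were 1.52, 1.54 and 1.72 (SE 0.07 each). The difference of sh3 from sh1 was 0.19 and from sh2 0.17.

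Of 11 other annexins, 8 were tested, and 3 were higher and 3 lower with sh1, 3 and 2 with sh2, and 5 and 2 with sh3. Their median log2 fold changes were 0.0084, 0.020 and 0.22. Anxa2 was higher by 0.18, 0.19 and 0.24, and Anxa4 by 0.28, 0.25 and 0.20, while Anxa3 was lower (-0.16, -0.17 and -0.11). Anxa1 had means of 94.2, 86.2, 91.3 and 160 FPKM in shLucif, sh1, sh2 and sh3 and was higher with sh3 (0.76, limma adjusted p = 2.04e-07).

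Angptl2 (chr2:33216069-33247717, plus strand; 4 annotated transcripts) encodes angiopoietin-like 2, a secreted glycoprotein known from adipose tissue inflammation. It stood at 5.01, 6.07 and 5.95 FPKM in CT26 shLucif, at 23.1, 18.1 and 17.3 with sh1, at 18.3, 16.8 and 15.5 with sh2, and at 20.2, 18.7 and 23.2 with sh3. All 9 hairpin libraries were above shLucif, sh1 overlapped sh2 and sh3, and sh3 lay just above sh2. Against shLucif the log2 fold changes were 1.61, 1.42 and 1.70 (SE 0.11 each). The difference of sh3 from sh1 was 0.0852 and from sh2 0.28. Angptl2 overlaps Ralgps1 on the opposite strand, at 0.392 to 1.28 FPKM. Other annotated genes that overlap one of the 10, apart from Tsfm, were at most 0.156 FPKM in the CT26 knockdown libraries.

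Of 6 other angiopoietin-like genes, 2 were tested. Angptl4, an inhibitor of lipoprotein lipase, had means of 0.893, 1.68, 1.62 and 2.44 FPKM in shLucif, sh1, sh2 and sh3, and was called higher with each hairpin (0.50, 0.46 and 0.86). Angptl6 had means of 35.7, 30.3, 28.4 and 19.3 FPKM and was called lower with sh2 (-0.32) and sh3 (-0.87).

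Hbb-bh1 (chr7:103841637-103843164, minus strand; 1 annotated transcript) encodes a beta-like globin of embryonic red cells. It stood at 0.690, 0.609 and 0.691 FPKM in CT26 shLucif, at 4.93, 5.32 and 4.39 with sh1, at 5.22, 5.29 and 3.89 with sh2, and at 10.8, 9.13 and 8.50 with sh3. Every hairpin library was above every shLucif library, and sh3 was above sh1 and sh2. The ratios of the group means were 7.35, 7.24 and 14.3, and the log2 fold changes 1.82, 1.79 and 2.65 (SE 0.11 each). On the log2 scale sh3 lay 0.83 above sh1 and 0.86 above sh2. None of the 12 other globins passed the filter on low values. Hbb-y, the neighbouring embryonic beta-like globin, had means of 0.0629, 0.263, 0.330 and 0.303 FPKM in shLucif, sh1, sh2 and sh3. The 10 erythroid markers were all below 1 FPKM, with summed levels of 0.204 to 0.406 FPKM in shLucif, 0.178 to 0.319 with sh1, 0.169 to 0.264 with sh2 and 0.303 to 0.435 with sh3. Tal1 was at 0 in all 4 groups and Gata1 in shLucif, sh1 and sh2. In bulk libraries, a change in how many cells hold a transcript and a change in how much each cell holds cannot be told apart.

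**Figure D2:**
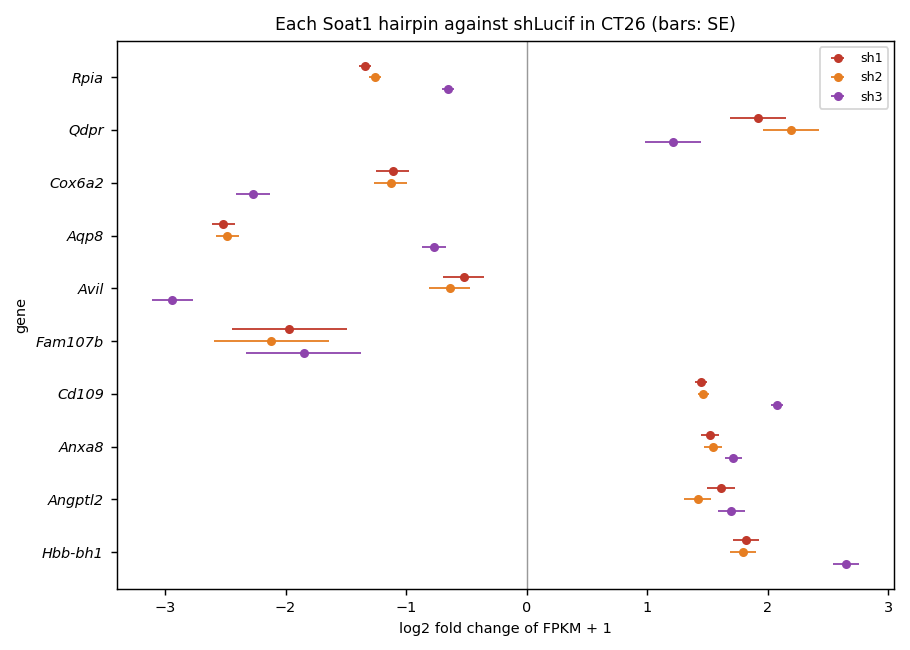
Log2 fold change of FPKM + 1 of each hairpin against shLucif in CT26 for the 10 genes (points; bars are the SE of the fit, 3 libraries per group). The sh1 and sh2 points lie beside each other for all 10 genes, while the sh3 point lies farther from 0 for Cox6a2 (-2.27) and Avil (-2.94) and nearer to 0 for Aqp8 (-0.77) and Rpia (-0.65).

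The differences between hairpins are made of the same sh1, sh2 and sh3 values that chose the genes, so the counts are given beside those over all genes and nothing is read from them. Between sh1 and sh2, limma called 0 of 10, with 0 at an unadjusted p under 0.05. Over all 11832 genes it called 0.0169%, with 983 at an unadjusted p under 0.05. For sh3 minus sh1, 8 of 10 genes were called, 5 higher and 3 lower, against 54.6% of all genes (32.2% higher and 22.5% lower). For sh3 minus sh2, 7 of 10 were called, 4 higher and 3 lower, against 55.7% of all genes (33.1% higher and 22.6% lower). Soat1, which is not one of the 10, was lower with sh3 than with sh1 (log2 difference -0.25, adjusted p = 0.000378).

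The mean level with sh3 was nearer to shLucif than those with sh1 and sh2 for Aqp8, Rpia, Qdpr and Fam107b. It was farther from shLucif for Cox6a2, Avil, Cd109, Hbb-bh1, Anxa8 and Angptl2. For Qdpr, Fam107b, Anxa8 and Angptl2 the sh3 libraries overlapped those of sh1. The smallest and largest absolute log2 fold changes lay 0.19 apart for Anxa8 and 0.28 for Angptl2, against 2.42 for Avil. For Fam107b they lay 0.27 apart, a value that rests on sh3 replicate 3, without which sh3 minus sh1 was -0.56.

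**Figure D3:**
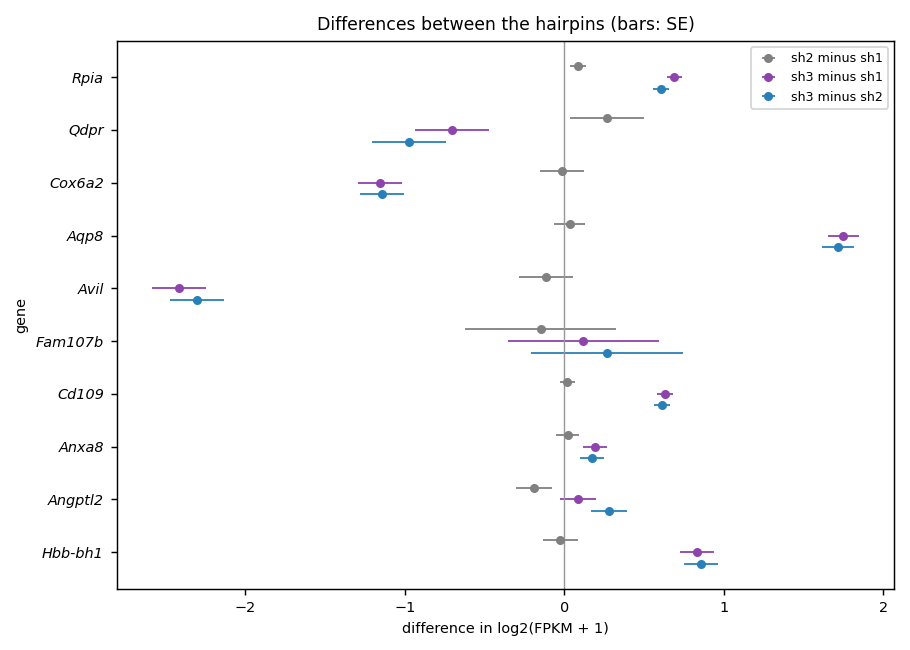
Difference in log2(FPKM + 1) between hairpins in CT26 for the 10 genes (points; bars are the SE of the fit, 3 libraries per group). The sh2 minus sh1 points lie between -0.19 and 0.27, while those of sh3 minus sh1 and sh3 minus sh2 lie left of 0 for Qdpr (-0.71 and -0.97), Cox6a2 and Avil (-2.42 and -2.30) and right of it for the other genes, farthest for Aqp8 (1.75 and 1.72). The bar of Fam107b is the widest in each comparison.

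For each gene, the 2 tested genes whose 3 hairpin log2 fold changes lay nearest were found by the mean absolute difference over the 3 hairpins, as a description. Anxa8 and Angptl2 were nearest to each other (0.0768), and Cryab, a small heat shock protein, was second for both. Cd109 was nearest to Dkk2, a secreted Wnt modulator (0.0758), then Cryab. Rpia was nearest to C430049B03Rik (0.0963) and Zbtb18 (0.111), and Qdpr to Lgals3bp (0.278) and Akr1c18 (0.332). Fam107b was nearest to Fgf21 (0.272), followed by Soat1, the targeted gene (0.374). Cox6a2 was nearest to Pcdhgb6 (0.268) and Mamdc2 (0.329), and Avil to Lcn2 (0.394) and Mamdc2 (0.418). Aqp8 had no close neighbour, its nearest being Fam107b (0.664) and Il11 (0.750). Hbb-bh1 was nearest to a gene listed without a symbol (0.370) and to Cd109 (0.423).

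The level without any hairpin came from CT26 cells treated with DMSO, in the other table. There Avil was 1.32, 1.49 and 1.22 FPKM, Cox6a2 was 0.9998, 1.03 and 1.38, and Aqp8 was 0.988, 0.624 and 1.01. These 3 genes were thus lower in cells with no hairpin than in any shLucif or Soat1 hairpin library. Cd109 was 16.4, 16.6 and 15.4 FPKM, Anxa8 16.3, 16.5 and 17.8, and Angptl2 12.5, 17.6 and 11.6. These 3 stood far above shLucif and overlapped the sh1 libraries. Rpia was 4.59, 4.45 and 4.28, between sh2 and sh3, and Qdpr was 25.6, 24.7 and 25.8, between shLucif and sh3. Hbb-bh1, at 1.03, 0.673 and 0.528, overlapped shLucif and lay far below the hairpins.

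For 9 of the 10 genes the DMSO libraries did not overlap the shLucif libraries, 5 lower and 4 higher, against 68.0% of 11832 genes (33.1% lower and 34.9% higher). These comparisons share the shLucif libraries with those of the hairpins, and the shLucif levels took part in the choice of the genes, so nothing is read from that count. The table, the date, the hours in culture and the drug solvent all differ between these groups and cannot be told apart from the hairpin vector.

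The compound stk changed none of the genes past the threshold in CT26. Of 9 tested, limma called 0, against 0.748% of 11358 genes. At an unadjusted p under 0.05 there were 3 of the 9, against 1656 of the 11358 genes. Aqp8 was not tested, with 1.03, 0.494 and 0.619 FPKM under stk. Anxa8 was 12.0, 14.2 and 14.3 FPKM under stk against 16.3, 16.5 and 17.8 in DMSO. The groups did not overlap, and the log2 difference was -0.30 (95% interval -0.48 to -0.13, adjusted p = 0.145). Qdpr was 28.2, 28.6 and 28.6 against 25.6, 24.7 and 25.8, a difference of 0.16 (0.08 to 0.25, adjusted p = 0.106). Rpia was 3.94, 4.02 and 3.89 against 4.59, 4.45 and 4.28, a difference of -0.14 (-0.26 to -0.01, adjusted p = 0.316). For all 3 genes the groups did not overlap, and none of the differences was called. The share of all genes without overlap between stk and DMSO was not computed in either line. Nothing is read from the lack of overlap.

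Cd109 was 15.5, 15.8 and 15.3 FPKM under stk, with an interval of the difference from -0.16 to 0.05. Avil (1.61, 1.33 and 1.97), Cox6a2 (1.20, 1.63 and 1.35) and Hbb-bh1 (1.09, 0.396 and 1.02) overlapped DMSO. Their intervals were -0.09 to 0.42, -0.09 to 0.42 and -0.38 to 0.51. Angptl2, at 11.6, 21.8 and 12.3, was set by 1 high library in each group, and its interval of -0.52 to 0.69 holds changes in both directions. Fam107b had an interval of -2.05 to 2.07 and so allows no statement. Soat1 was 12.1, 13.6 and 12.6 under stk against 12.1, 12.2 and 12.5 (adjusted p = 0.706).

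In Hepa1-6, 5 of the 10 genes were tested with stk, and limma called 0, against 1.53% of 11426 genes. At an unadjusted p under 0.05 there was 1 of the 5, against 2714 of the 11426 genes. That 1 was Anxa8, at 1.19, 1.29 and 1.40 FPKM under stk against 1.67, 1.74 and 1.72 in DMSO. The groups did not overlap, and the difference was -0.24 (95% interval -0.41 to -0.07, adjusted p = 0.111). Rpia was 3.67, 3.51 and 2.97 under stk against 3.06, 3.74 and 3.25 (interval -0.21 to 0.23). Qdpr was 13.2, 8.87 and 12.6 against 6.74, 13.3 and 12.7 (interval -0.51 to 0.72), and Cd109 was 0.906, 0.959 and 1.30 against 1.18, 1.29 and 1.04 (interval -0.32 to 0.16). Fam107b was 16.1, 15.6 and 9.21 against 50.3, 13.9 and 13.6 (interval -1.84 to 0.55).

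The test of whether the response to stk differed between the lines called 0 of 9 genes, against 0.304% of 12822 genes. At an unadjusted p under 0.05 there were 0 of the 9, against 1780 of the 12822 genes. Cox6a2 and Hbb-bh1 were listed at 0 in the Hepa1-6 DMSO and stk libraries. Their differences between the lines (0.163 and 0.062) were thus the CT26 responses alone. Avil and Angptl2 reached 1 FPKM only in CT26 libraries, so the count says little of a response in Hepa1-6 for these genes. For Anxa8 the response in CT26 minus that in Hepa1-6 was -0.07 (95% interval -0.28 to 0.14). Among the other genes of the 10 family and pathway lists, the lowest limma adjusted p with stk was 0.0564 in CT26 (Anxa1, -0.21) and 0.0738 in Hepa1-6 (C3, 0.17), so none was called.

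**Figure D4:**
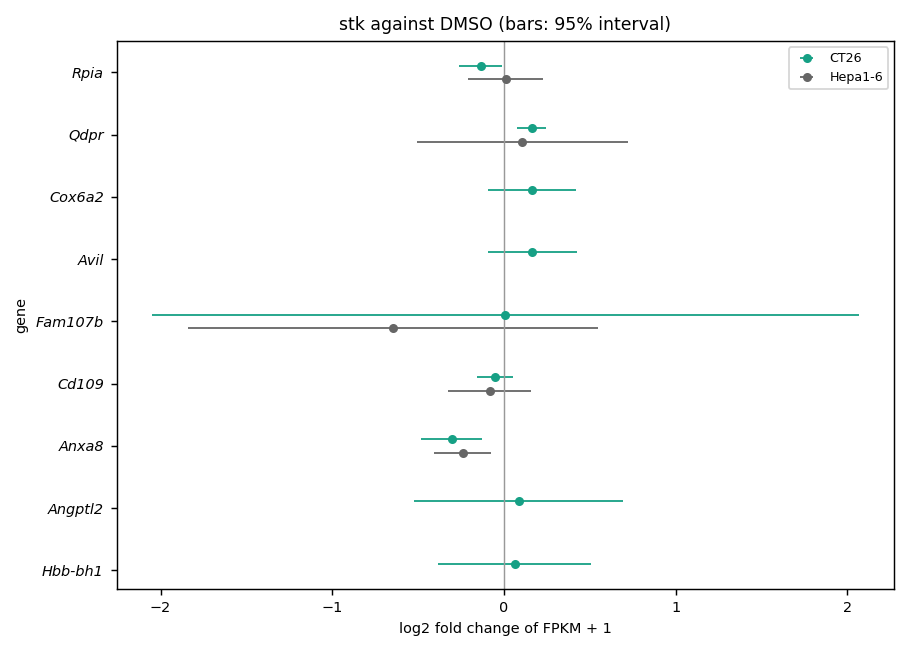
Log2 fold change of FPKM + 1 with stk against DMSO in CT26 and in Hepa1-6 (points; bars are 95% intervals, 3 libraries per group), for the genes tested in each line. No gene was called. The Anxa8 intervals lie below 0 in both lines (-0.48 to -0.13 and -0.41 to -0.07), and the Fam107b bars are the widest.

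Between the lines, with DMSO alone, 8 of 9 tested genes were called, all higher in CT26, against 76.8% of 12822 genes called (38.5% higher and 38.4% lower). Cox6a2, Hbb-bh1, Avil and Angptl2 reached 1 FPKM only in CT26 libraries, so they passed the filter through the line where they were higher. The genes were also chosen by their changes in CT26, so nothing is read from the count or its direction. Angptl2 was 0.176, 0.205 and 0.207 FPKM in Hepa1-6, so that CT26 had 71.0 times its mean, a log2 difference of 3.62 (SE 0.20, limma adjusted p = 1.99e-08). Cd109 was 1.18, 1.29 and 1.04, a difference of 2.98 (SE 0.07, adjusted p = 1.26e-11), and Anxa8, at 1.67, 1.74 and 1.72, of 2.72 (SE 0.07, adjusted p = 1.40e-11). Cox6a2 and Hbb-bh1 were listed at 0 in all 3 Hepa1-6 DMSO libraries and all 3 stk libraries. Avil was 0.0507, 0.0654 and 0.0485, so that CT26 had 24.4 times its mean, while the log2(FPKM + 1) difference of this low gene was 1.15 (adjusted p = 2.61e-07). For the enzymes Qdpr and Rpia, CT26 had 2.32 and 1.33 times the Hepa1-6 mean, with differences of 1.20 (adjusted p = 0.000270) and 0.33 (adjusted p = 0.00162). Fam107b was not called (-1.04, interval -2.79 to 0.71, adjusted p = 0.250), and leaving out 1 library gave -1.44 to -0.25. Aqp8 did not pass the filter, at 0.425, 0.434 and 0.0326 in Hepa1-6.

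In the knockdown table, the comparison of the scrambled hairpin with shLucif in Hepa1-6 rests wholly on the libraries labelled Hepa1-6 shLucif that went against their label, and there is no value without them. Over all 12055 genes it called 68.2% (31.4% higher and 36.8% lower). Of the 10 genes, 7 were tested and 7 called, 2 higher with scramble (Rpia and Fam107b) and 5 lower (Aqp8, Cd109, Qdpr, Anxa8 and Angptl2). Aqp8, Cd109 and Angptl2 reached 1 FPKM only in the libraries labelled Hepa1-6 shLucif, so they passed the filter through the group where they were higher. Nothing is read from the count. Angptl2 was 5.04, 5.44 and 4.28 FPKM in the libraries labelled Hepa1-6 shLucif against 0.130, 0.0267 and 0.0823 with scramble, a log2 difference of -2.45 (SE 0.09, limma adjusted p = 8.40e-07). Anxa8 was 5.57, 5.93 and 6.58 against 1.01, 0.964 and 1.51 (-1.71, adjusted p = 1.32e-05). Cd109 was 4.21, 4.38 and 4.74 against 0.777, 0.876 and 0.898 (-1.56, adjusted p = 1.46e-06). For these 3 genes the libraries labelled Hepa1-6 shLucif stood near the CT26 shLucif levels, and scramble near Hepa1-6 DMSO. Most of the 10 genes did not share this. Avil, Cox6a2, Aqp8, Fam107b, Rpia and Hbb-bh1 lay below every CT26 shLucif library, and Qdpr overlapped them. The CT26 shLucif levels took part in the choice of the genes, and the share of all genes near or below those levels was not computed. Nothing is read from which genes stood near or below CT26 shLucif. The mean of Avil was 1.02 FPKM in the libraries labelled Hepa1-6 shLucif, against 56.5 in CT26 shLucif. Which cells these libraries hold was not tested.

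Aqp8 was 2.36, 2.18 and 1.87 FPKM in the libraries labelled Hepa1-6 shLucif against 0.372, 0.278 and 0.244 with scramble (-1.27, limma adjusted p = 1.10e-05). Qdpr was 16.3, 22.9 and 24.7 against 13.1, 7.44 and 11.4 (-0.95, adjusted p = 0.00752). Both were lower with scramble without overlap. Rpia was 2.42, 2.48 and 2.39 against 3.56, 3.77 and 3.81 (0.46, adjusted p = 0.000251). Fam107b was 4.86, 4.67 and 7.61 against 7.66, 17.0 and 8.62 (0.80, adjusted p = 0.0491). That call was lost without shLucif replicate 1 (adjusted p = 0.132) or 2 (0.132), without scramble replicate 2 (0.0771) or 3 (0.0580), with no filter on low values (0.121) and with the replicate number as a block (0.0692). Avil, at 0.883 to 1.24 against 0.139 to 0.188, was not tested. Cox6a2 and Hbb-bh1 were listed at 0 with scramble and were at most 0.388 and 0.101 FPKM in the libraries labelled Hepa1-6 shLucif.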

How the data were processed

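The authors deposited FPKM, 1 table per experiment. Per the labels' protocols, total RNA was isolated with TRIzol, sequenced in read pairs on an Illumina HiSeq (the SMARTer kit for some samples) and reads were trimmed with Skewer. Per the submitters' processing notes, the build was GRCm38, with STAR, HISAT2, edgeR and DESeq2 as tools. For their roles, versions and strand setting: not given in the sources used here. The tables' names are swapped between the experiments, so tables were assigned by column names. Of 45 labelled samples, 30 were used, and 21 columns matched no label and were left out. The sh1 columns carry no replicate number of the labels and were used as a group.

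From the deposited FPKM, log2(FPKM + 1) was tested with limma 3.58.1 in R 4.3.3 (mean-variance trend, 1 mean per group, two-sided), with shLucif, sh1, sh2 and sh3 in 1 model, and tested on simulated data first. Gene positions are GENCODE M21. Alternatives were a pseudocount of 0.1, no filter, quantile normalization, a replicate block and leaving out each library.

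The 10 genes, the family, marker and motif lists were chosen with earlier results of these data known. Other genes named are Soat1, called genes of the family lists, and the 2 genes nearest to each of the 10 in their hairpin changes. Family members were tested against shLucif only where they are not among the 10. A result of the tetrahydrobiopterin list is not reported here.

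The numbers do not pair the libraries: correlations of same-numbered libraries over genes were -0.0497 to 0.105.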

Additional observations from a re-analysis of the deposited data

How the results depend on the processing

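There are 3 libraries a group, the depth is unknown, and changes of genes near 1 FPKM are understated by the pseudocount. Counts between hairpins rest on the values that chose the genes and are descriptions. The number of the 10 genes called stayed within 1 of its value with another pseudocount, quantile normalization, no filter, the replicate block and the hairpin-only model, except for sh3 minus sh1, where it went from 8 to 6 with no filter. Leaving out 1 library gave 6 to 7 genes for sh3 minus sh1 (against 8), 7 to 8 for sh3 minus sh2 and 6 to 7 for scramble against shLucif.

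Counts over all genes moved more. With stk in CT26, 85 genes were called, 14 with no filter, 4 with the replicate block and 4 to 94 without 1 library. In Hepa1-6 there were 175, then 4 with no filter, 4 with the replicate block and 7 to 58 without 1 library. The difference between the lines gave 39, then 6 with the replicate block and 9 to 28 without 1 library. For sh2 minus sh1 there were 2, then 6 with no filter, 2 to 32 without 1 library, and 0 in a model of the hairpin groups only, which was added after seeing the data. The cause was not tested. The block changed 1 call among the 10 genes, Fam107b with scramble (adjusted p = 0.0692), and was not run for sh2 minus sh1 and sh3 minus sh1, since the sh1 columns carry no replicate number.

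Directions of uncalled differences turned as follows when 1 library was left out. With stk in CT26, Fam107b ranged from -0.78 to 0.78, Angptl2 from -0.19 to 0.26 and Hbb-bh1 from -0.0445 to 0.25. With stk in Hepa1-6, Rpia ranged from -0.0376 to 0.0801 and Qdpr from -0.18 to 0.27. For the difference between the lines, Fam107b ranged from -0.13 to 1.42, Angptl2 from -0.17 to 0.27, Hbb-bh1 from -0.0445 to 0.25, Qdpr from -0.11 to 0.34, Cd109 from -0.0191 to 0.12 and Anxa8 from -0.11 to 0.00995 (0.0527 with a pseudocount of 0.1). For sh2 minus sh1, Fam107b ranged from -0.44 to 0.0735, Cox6a2 from -0.11 to 0.14, Hbb-bh1 from -0.0884 to 0.0933, Aqp8 from -0.0320 to 0.12, Cd109 from -0.0116 to 0.0529 and Anxa8 from -0.0207 to 0.0875. Fam107b ranged from -0.56 to 0.53 for sh3 minus sh1 and from -0.41 to 0.68 for sh3 minus sh2.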
